A study of Homo sapiens with 5 samples.

Results

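The HOX genes encode homeodomain transcription factors that lie side by side in 4 clusters, HOXA on chromosome 7, HOXB on chromosome 17, HOXC on chromosome 12 and HOXD on chromosome 2. They were taken as every row of the deposited count table whose name is HOX, a cluster letter and a number, which gave 39 of 27992 gene names: 11 HOXA, 10 HOXB, 9 HOXC and 9 HOXD genes. Of these, 32 had at least 1 CPM (counts per 1000000 gene reads after scaling between libraries) in at least 1 library and were analysed.

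Levels were measured by RNA sequencing in U2OS, a human osteosarcoma cell line, in 5 libraries with 1 library per group. Apart from parental U2OS, which has no construct, the groups are flow-sorted fractions, from YFP-negative over YFP-low and YFP-medium to YFP-high, of U2OS pTRIPZ-YFP-ER-E2F1 cells, which carry a lentiviral, doxycycline-inducible fusion of yellow fluorescent protein, the oestrogen receptor and E2F1, a transcription factor of the cell cycle. All 5 groups, parental included, are labelled as having received 500 ng/ml doxycycline for 48 h and then 90 nM OHT, the ligand that activates such receptor fusions, for a further 20 h, in medium with 8% fetal bovine serum. The sources used here do not say whether the construct line is a clone, and YFP-negative cells carry the construct and saw the same drugs. The question of the series was how the level of E2F1 relates to what the cells do.

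During development HOX genes are switched on along each cluster in the order in which they lie, and the set that is on in a cell marks its position along the body axis or the limb. Genes with the same number in different clusters are paralogues, low numbers being anterior and high numbers posterior. Adult cells and cell lines keep much of this pattern through Trithorax group proteins, which hold genes active, and Polycomb group proteins, which hold them silent. HOX proteins bind DNA together with TALE homeodomain partners of the PBX and MEIS families.

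The libraries held between 70.7 M and 76.5 M gene reads. E2F1 itself stood at 86.1 CPM in parental cells, 106 in YFP-negative cells, 163 in YFP-low cells, 361 in YFP-medium cells and 996 CPM in YFP-high cells, counting the construct and the cell's own gene together. A call of higher or lower needed a log2 ratio past 2-fold, with a pseudocount of 0.5 CPM, and an exact 95% counting interval of the ratio (Clopper-Pearson, from the pair of read counts) that excluded no change. Folds are given without the pseudocount, and each is followed in brackets by that interval. No difference here has a replicate check, and intervals cover counting error only, which PCR copies of 1 molecule can make too narrow. Fewer cells that express a gene and less RNA of it per cell cannot be told apart in such bulk libraries. Of 9 osteoblast lineage markers, SP7, COL1A2, IBSP and BGLAP lay under 1 CPM in every library. The summed level of the list was 4687 CPM in parental cells, 2274 in YFP-negative cells, 2044 in YFP-low cells, 1865 in YFP-medium cells and 1592 CPM in YFP-high cells. Leukocyte markers summed to 0.339 to 0.697 CPM, endothelial markers to 1.51 to 2.504 CPM, epithelial markers to 454 to 572 CPM with KRT19 at 0, and neuronal markers to 138 to 262 CPM. The part of these marker levels in the HOX results was not tested.

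The RefSeq promoter windows (GRCh38.p14, 250 bases before to 50 after a gene's start) of 6 members are given here, 5′ to 3′ on the gene's own strand. HOXA13, HOXA10 and HOXD8 were the most abundant HOX transcripts in YFP-high cells, HOXD3 had the widest fold among the analysed members, HOXA3 and HOXD3 are shown for the E2F-type motif in their windows, and HOXC4 is a HOXC gene that was lower at every gate. Capitals mark a match to 1 of 3 E2F-type motifs, TTTCGCGC, TTTGGCGC or TTCCCGC, searched on both strands with overlapping matches each counted.
HOXA13, chr7:27200042-27200341, minus strand: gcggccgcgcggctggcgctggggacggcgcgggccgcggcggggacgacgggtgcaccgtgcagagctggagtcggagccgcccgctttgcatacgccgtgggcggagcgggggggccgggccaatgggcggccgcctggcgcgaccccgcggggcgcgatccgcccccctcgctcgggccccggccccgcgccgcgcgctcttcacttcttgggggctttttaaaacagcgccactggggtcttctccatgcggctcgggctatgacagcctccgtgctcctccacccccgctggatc
HOXA10, chr7:27179812-27180111, minus strand: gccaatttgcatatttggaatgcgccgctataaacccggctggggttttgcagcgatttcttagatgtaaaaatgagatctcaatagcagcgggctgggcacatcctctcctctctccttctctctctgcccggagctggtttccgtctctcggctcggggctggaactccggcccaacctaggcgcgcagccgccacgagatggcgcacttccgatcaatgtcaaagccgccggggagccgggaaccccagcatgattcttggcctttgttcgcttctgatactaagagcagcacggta
HOXA3, chr7:27122978-27123277, minus strand: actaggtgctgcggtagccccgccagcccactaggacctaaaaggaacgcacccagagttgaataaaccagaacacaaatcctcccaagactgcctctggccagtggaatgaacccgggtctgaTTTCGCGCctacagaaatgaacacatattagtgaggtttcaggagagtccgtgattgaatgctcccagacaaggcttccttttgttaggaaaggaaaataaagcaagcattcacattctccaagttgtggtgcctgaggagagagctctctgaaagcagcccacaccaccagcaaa
HOXD8, chr2:176129455-176129754, plus strand: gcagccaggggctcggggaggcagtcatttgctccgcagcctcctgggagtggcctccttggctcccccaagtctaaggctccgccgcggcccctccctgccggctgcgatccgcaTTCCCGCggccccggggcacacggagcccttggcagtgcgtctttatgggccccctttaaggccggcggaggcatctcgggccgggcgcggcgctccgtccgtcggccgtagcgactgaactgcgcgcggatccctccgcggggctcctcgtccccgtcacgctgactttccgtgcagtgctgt
HOXD3, chr2:176157057-176157356, plus strand: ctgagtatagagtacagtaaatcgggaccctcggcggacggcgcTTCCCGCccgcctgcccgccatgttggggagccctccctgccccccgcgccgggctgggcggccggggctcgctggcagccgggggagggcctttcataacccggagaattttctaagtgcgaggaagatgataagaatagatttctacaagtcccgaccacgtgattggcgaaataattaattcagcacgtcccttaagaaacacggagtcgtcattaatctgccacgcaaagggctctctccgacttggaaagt
HOXC4, chr12:54016638-54016937, plus strand: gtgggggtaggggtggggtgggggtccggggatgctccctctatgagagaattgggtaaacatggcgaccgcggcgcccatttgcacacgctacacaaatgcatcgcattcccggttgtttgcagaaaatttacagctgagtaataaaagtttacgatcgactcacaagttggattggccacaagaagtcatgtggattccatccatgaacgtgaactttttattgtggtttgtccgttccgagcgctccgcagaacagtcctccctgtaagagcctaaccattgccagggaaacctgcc

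Windows were found for 20 of the 39 members, as 26 distinct windows, because HOXA3 and HOXA10 have several starts and HOXC4 and HOXC5 share one. Members without one include HOXA5, HOXB2, HOXB3, HOXB4, HOXB5, HOXB6, HOXB7, HOXB8, HOXB9, HOXB13, HOXC6, HOXC8, HOXC9, HOXC10, HOXC11, HOXC12, HOXC13 and HOXD9. A motif stood in 4 of the 26 windows (15.4%), against 2635 of 34943 RefSeq windows of that length (7.54%). TTCCCGC began at base -134 from the start of HOXD8 and at base -206 from that of HOXD3, and lay on the opposite strand in the window of HOXD13. TTTCGCGC began at base -126 from 1 of the starts of HOXA3. Over all windows TTCCCGC stood in 6.54%, TTTGGCGC in 0.650% and TTTCGCGC in 0.507%. A match describes the letters of a window and is not a measured site. HOXA13 and HOXA10 have no capitals and HOXD8 has, while all 3 were called higher in YFP-high cells. Whether a motif bears on a call was not tested.

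In YFP-high against YFP-negative cells the HOX genes parted by cluster. In the HOXA cluster 7 of 9 analysed members were called higher, in HOXD 5 of 7, in HOXB and HOXC none. In HOXB 4 of 8 were called lower, and HOXC had no call among 8. Together 12 of 32 HOX members were called higher (37.5%) beside 20.5% of the 15109 analysed genes, and 4 lower (12.5%) beside 11.3%. The median log2 ratio was 2.24 in HOXA, 2.22 in HOXD, -0.64 in HOXB and -0.21 in HOXC, beside -0.04 over the analysed genes. HOXD1 and HOXD3 reached 1 CPM in YFP-high cells alone, so they had to differ and their calls are no support. Without genes of that kind HOXD had 3 of 5 called higher, and the HOX genes 10 of 30 (33.3%), beside 18.4% of the 14590 analysed genes left. HOXC5, HOXD10 and HOXD11 reached 1 CPM in parental cells alone, so that their lower levels in the other libraries are likewise no support.

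**Figure D1:**
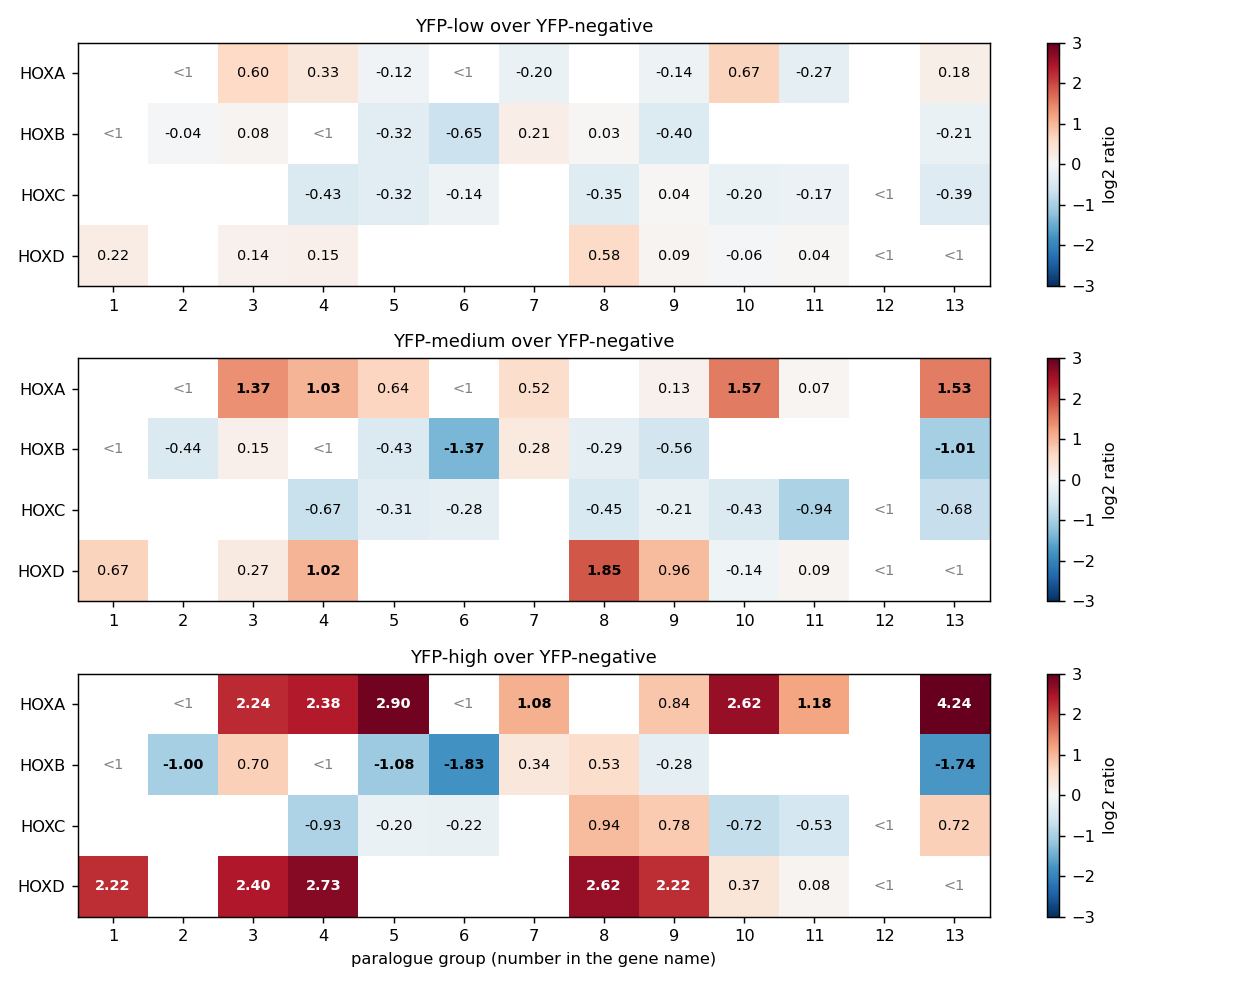
Log2 ratios of the HOX members by cluster (down) and paralogue group (across) in YFP-low, YFP-medium and YFP-high over YFP-negative cells, 1 library each, coloured on a scale from -3 to 3. Bold values were called, <1 marks members under 1 CPM in every library, blank squares hold no gene or one that is not shown, and the HOXA and HOXD rows carry the red squares up to 4.24 for HOXA13 while the HOXB row holds the called blue ones down to -1.83 for HOXB6.

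HOXA13, which patterns the hand, foot and lower urogenital tract, stood at 5.52 CPM in parental cells, 3.78 in YFP-negative cells, 4.34 in YFP-low cells, 11.8 in YFP-medium cells and 80.6 CPM in YFP-high cells. The YFP-high level was 21.3-fold that of YFP-negative cells (19.0 to 24.0), and the last gate held the largest step. HOXA13 in YFP-high cells was 6.81-fold above YFP-medium (6.32 to 7.34).

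HOXA10, needed for the uterus and for male and female fertility in mice, stood at 17.0 CPM in parental cells, 21.7 in YFP-negative cells, 34.8 in YFP-low cells, 65.5 in YFP-medium cells and 136 CPM in YFP-high cells. It climbed at each gate, to 6.26-fold the YFP-negative level (5.96 to 6.59) in YFP-high cells. HOXA3, which in mice is needed for the thymus and parathyroid, had 2.73 CPM in parental cells, 3.72 in YFP-negative cells, 5.88 in YFP-low cells, 10.4 in YFP-medium cells and 19.4 CPM in YFP-high cells. It followed the same graded course and reached 5.23-fold (4.61 to 5.94). HOXA4, an axial patterning gene, had 3.26 CPM in parental cells, 3.75 in YFP-negative cells, 4.86 in YFP-low cells, 8.16 in YFP-medium cells and 21.7 CPM in YFP-high cells, which is 5.77-fold in YFP-high over YFP-negative (5.10 to 6.55). HOXA3 and HOXA4 overlap each other and the antisense gene HOXA-AS2 in the annotation. HOXA3 also overlaps HOXA5, HOXA6 and HOXA-AS3, HOXA5 and HOXA7 overlap HOXA-AS3, and HOXA10 overlaps HOXA10-AS and HOXA10-HOXA9. Reads of these overlaps cannot be told apart here.

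HOXA5, needed for lung development in mice, stood at 1.17 CPM in parental cells, 0.911 in YFP-negative cells, 0.801 in YFP-low cells, 1.70 in YFP-medium cells and 10.01 CPM in YFP-high cells. HOXA5 gained 10.99-fold in YFP-high over YFP-negative cells (8.66 to 14.1). Its largest step was the last, 5.90-fold in YFP-high over YFP-medium (4.83 to 7.26), after 2.12-fold in YFP-medium over YFP-low (1.54 to 2.93). YFP-low over YFP-negative lay within counting error, at 0.880 (0.619 to 1.25). HOXA11, which shapes the forearm and lower leg and the kidney together with its paralogues in mice, had 12.3 CPM in parental cells, 13.97 in YFP-negative cells, 11.5 in YFP-low cells, 14.6 in YFP-medium cells and 32.2 CPM in YFP-high cells. It lay between 11.5 and 14.6 CPM in all libraries but YFP-high, which stood 2.31-fold over YFP-negative (2.15 to 2.48). HOXA7, an axial patterning gene, had 4.59 CPM in parental cells, 2.53 in YFP-negative cells, 2.15 in YFP-low cells, 3.84 in YFP-medium cells and 5.88 CPM in YFP-high cells, 2.33-fold in YFP-high over YFP-negative (1.96 to 2.77). Its call rests on the YFP-negative baseline, since YFP-high was 1.28-fold the parental level (1.11 to 1.49). With libraries scaled by total counts, HOXA7 and HOXA11 were no longer called.

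HOXA9, a gene of blood stem cells and of leukaemia, had 6.76 CPM in YFP-high and 3.56 CPM in YFP-negative cells, a ratio of 1.90 (1.63 to 2.21) that was not called. HOXA2, a gene of the hindbrain and branchial arches, did not reach 1 CPM but had 2 reads in parental cells, 3 in YFP-negative cells, 8 in YFP-low cells, 17 in YFP-medium cells and 33 in YFP-high cells. The ratio of YFP-high to YFP-negative was 14.4 with a wide interval (4.50 to 73.2). HOXA6 had 42 reads in YFP-high and 23 in YFP-negative cells, with 44 in parental cells.

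In the HOXD cluster the called members were HOXD1, HOXD3, HOXD4, HOXD8 and HOXD9. HOXD8, an axial patterning gene, stood at 7.30 CPM in parental cells, 10.3 in YFP-negative cells, 15.7 in YFP-low cells, 38.6 in YFP-medium cells and 66.2 CPM in YFP-high cells. Its largest step lay between YFP-medium and YFP-low (2.46-fold, 2.30 to 2.63), 1 gate earlier than that of HOXA13, and YFP-high was 6.41-fold over YFP-negative (5.96 to 6.91). HOXD9, a gene of the limb and the lower spine, had 4.08 CPM in parental cells, 4.09 in YFP-negative cells, 4.39 in YFP-low cells, 8.40 in YFP-medium cells and 20.8 CPM in YFP-high cells. It was near one level in parental, YFP-negative and YFP-low cells, and YFP-high stood 5.10-fold over YFP-negative (4.52 to 5.76).

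HOXD4, of the hindbrain and neck vertebrae, had 0.114 CPM in parental cells, 0.3596 in YFP-negative cells, 0.452 in YFP-low cells, 1.24 in YFP-medium cells and 5.21 CPM in YFP-high cells, 14.5-fold in YFP-high over YFP-negative (9.96 to 21.8). HOXD1, an anterior gene, had 0.203 CPM in parental cells, 0.372 in YFP-negative cells, 0.517 in YFP-low cells, 0.885 in YFP-medium cells and 3.57 CPM in YFP-high cells, 9.60-fold in YFP-high over YFP-negative (6.58 to 14.5). Both were lowest in parental cells and highest in YFP-high cells, which for HOXD1 was fixed because it reached 1 CPM there alone. HOXD3, which overlaps HOXD4 in the annotation, had 1 read in parental cells, 4 in YFP-negative cells, 8 in YFP-low cells, 11 in YFP-medium cells and 153 in YFP-high cells, a ratio of 49.9 between YFP-high and YFP-negative (19.1 to 186). That is 2.39 CPM in YFP-high and 0.0480 CPM in YFP-negative cells.

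HOXD10 and HOXD11 were not called. HOXD10 had 0.735 CPM in YFP-high and 0.456 CPM in YFP-negative cells, with 1.39 CPM in parental cells. HOXD11 had 0.814 CPM in YFP-high and 0.743 CPM in YFP-negative cells, a ratio of 1.09 (0.742 to 1.61), with 2.87 CPM in parental cells. Both were highest in parental cells, the only library in which they reached 1 CPM, so that this order is no support. HOXD12 had 12 reads in parental, 2 in YFP-negative and 0 in the 3 YFP-positive libraries, and HOXD13, mutations of which malform the digits, had between 0 and 6 reads in every library. No fold is given at these counts, around the floor of 3 reads, which is 0.0469 CPM in YFP-high and 0.0360 CPM in YFP-negative cells.

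The HOXB cluster ran the other way for 4 genes. HOXB6, an axial and blood cell gene, stood at 10.5 CPM in parental cells, 10.98 in YFP-negative cells, 6.84 in YFP-low cells, 3.95 in YFP-medium cells and 2.74 CPM in YFP-high cells. It was lower at each gate and ended 4.01-fold below YFP-negative in YFP-high cells (3.41 to 4.74). HOXB13, a gene of the prostate and tail end, had 10.9 CPM in parental cells, 7.65 in YFP-negative cells, 6.55 in YFP-low cells, 3.56 in YFP-medium cells and 1.94 CPM in YFP-high cells, 3.94-fold lower in YFP-high than in YFP-negative (3.25 to 4.82). Its paralogue HOXA13 was higher at each of these gates, while both were lower in YFP-negative than in parental cells.

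HOXB5, needed in mice for the position of the shoulder girdle, had 2.498 CPM in parental cells, 2.39 in YFP-negative cells, 1.81 in YFP-low cells, 1.64 in YFP-medium cells and 0.861 CPM in YFP-high cells, 2.77-fold lower in YFP-high than in YFP-negative (2.05 to 3.81). HOXB2, of the hindbrain, had 7.49 CPM in parental cells, 2.04 in YFP-negative cells, 1.96 in YFP-low cells, 1.37 in YFP-medium cells and 0.767 CPM in YFP-high cells, 2.66-fold lower in YFP-high than in YFP-negative (1.92 to 3.73). The log2 ratio of HOXB2 lay at the threshold, at -1.002, and was not called with DESeq2 size factors. HOXB2, HOXB5 and HOXB6 overlap antisense genes, HOXB-AS1 for HOXB2 and HOXB-AS3 for HOXB5 and HOXB6, from which their reads cannot be told apart here.

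The other analysed HOXB genes kept within 2-fold in YFP-high against YFP-negative cells. HOXB8 was 2.24-fold higher in YFP-high than in YFP-medium cells (1.61 to 3.14), without a call. HOXB3, of the hindbrain, had 46.3 CPM in YFP-high and 28.2 CPM in YFP-negative cells, a ratio of 1.64 (1.55 to 1.73). HOXB7, an axial patterning gene, had 19.0 CPM in YFP-high and 14.9 CPM in YFP-negative cells, and HOXB8 had 1.82 CPM in YFP-high and 1.10 CPM in YFP-negative cells. HOXB9, a posterior gene of the rib cage in mice, had 43.2 CPM in YFP-high and 52.4 CPM in YFP-negative cells, 1.21-fold lower (1.16 to 1.27). Among those under 1 CPM, HOXB4, known for expanding blood stem cells, had 40 reads in parental cells, 74 in YFP-negative cells, 27 in YFP-low cells, 12 in YFP-medium cells and 23 in YFP-high cells. The YFP-high level of HOXB4 was 2.46-fold below YFP-negative (1.53 to 4.12), and HOXB1 had a single read, in YFP-high cells.

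**Figure D2:**
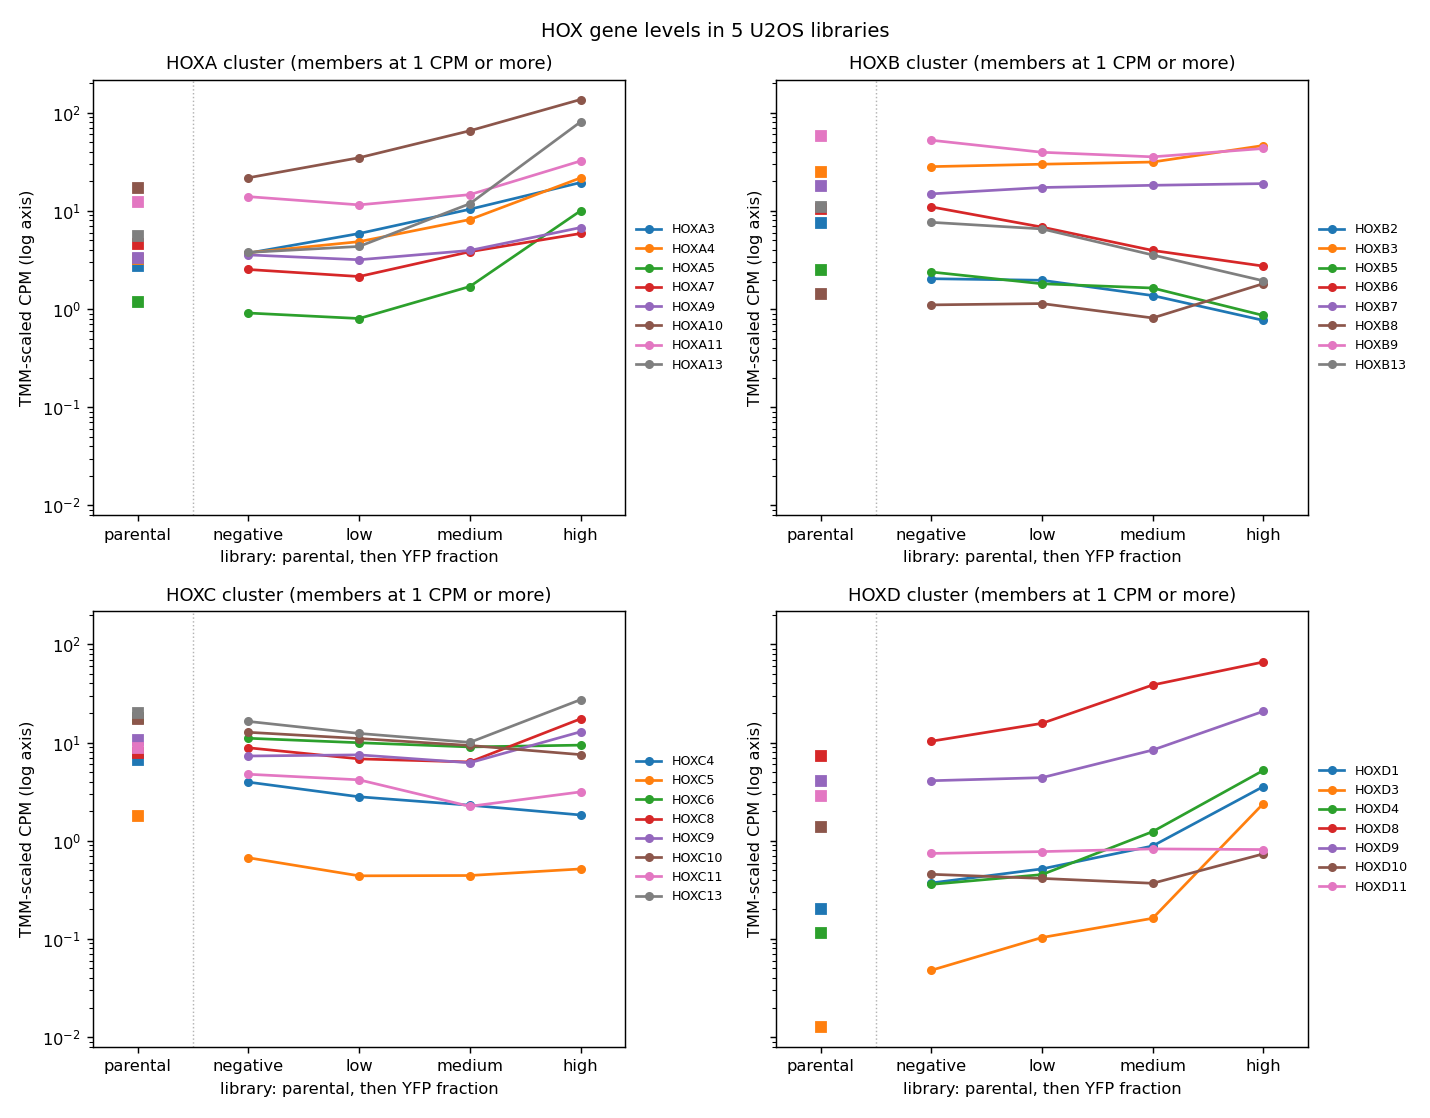
TMM-scaled CPM on a log axis for analysed HOX genes by cluster, with the parental library as squares and the YFP fractions as joined points, 1 library per point. In YFP-high cells 7 HOXA and 5 HOXD genes were called higher than in YFP-negative cells, HOXB6 and HOXB13 descend to 2.74 and 1.94 CPM, and 5 of the 8 HOXC lines have their lowest fraction at YFP-medium.

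HOXC genes formed no group of calls against YFP-negative, but 5 of the 8 (62.5%) had their lowest level of the 4 construct fractions in YFP-medium cells, beside 11.1% of the analysed genes. For 2 of these 5 the minimum lay within counting error of a neighbouring gate, since YFP-high over YFP-medium was 1.04 for HOXC6 (0.931 to 1.17) and YFP-medium over YFP-low was 0.930 for HOXC8 (0.817 to 1.06). HOXC13, which drives hair and nail keratins, had 19.8 CPM in parental cells, 16.4 in YFP-negative cells, 12.4 in YFP-low cells, 10.05 in YFP-medium cells and 27.4 CPM in YFP-high cells. YFP-high was 2.72-fold over YFP-medium (2.49 to 2.98) but 1.67-fold over YFP-negative (1.55 to 1.79). HOXC8, which in mice patterns the ribs and the motor neurons of the forelimb, had 7.90 CPM in parental cells, 8.85 in YFP-negative cells, 6.82 in YFP-low cells, 6.34 in YFP-medium cells and 17.4 CPM in YFP-high cells, 2.75-fold in YFP-high over YFP-medium (2.46 to 3.08). Both were lowest in YFP-medium and highest in YFP-high cells. HOXC9, which sets the thoracic level of motor neurons in mice, had 7.30 CPM in YFP-negative cells, 6.23 in YFP-medium cells and 12.9 CPM in YFP-high cells. HOXC11 had 4.76 CPM in YFP-negative cells, 2.24 in YFP-medium cells and 3.15 CPM in YFP-high cells. HOXC6 had 11.1 CPM in YFP-negative cells, 9.03 in YFP-medium cells and 9.42 CPM in YFP-high cells.

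HOXC4 and HOXC10 were lower at every gate without a call. HOXC4, a gene also used in lymphocytes, had 6.69 CPM in parental cells, 3.96 in YFP-negative cells, 2.80 in YFP-low cells, 2.30 in YFP-medium cells and 1.83 CPM in YFP-high cells, 2.16-fold lower in YFP-high than in YFP-negative (1.74 to 2.69). Its log2 ratio of -0.93 fell short of the threshold, which it passed when libraries were scaled by total counts (-1.16). HOXC10, of hindlimb motor neurons in mice, had 7.54 CPM in YFP-high and 12.7 CPM in YFP-negative cells, 1.69-fold lower (1.51 to 1.88). HOXC5 had 0.516 CPM in YFP-high and 0.671 CPM in YFP-negative cells. HOXC4, HOXC5 and HOXC6 overlap in the annotation, so reads of their common part cannot be assigned, and HOXC12 had 1 read in YFP-low and 0 in the other libraries.

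No position class along the clusters carried calls in a single direction. In YFP-high against YFP-negative cells the anterior class (paralogue groups 1 to 3) had 3 members higher and 1 lower of 6, or 1 and 1 of 4 without HOXD1 and HOXD3, the central class (4 to 8) 5 higher and 2 lower of 13, and the posterior class (9 to 13) 4 higher and 1 lower of 13, beside 20.5% higher and 11.3% lower over all analysed genes. Calls in opposite directions stood in 2 of the 13 paralogue groups, of which 11 had the 2 or more analysed members this needs. In group 13, HOXA13 was called higher, HOXB13 lower and HOXC13 neither, and in group 5, HOXA5 was called higher, HOXB5 lower and HOXC5 neither. In group 4, HOXA4 and HOXD4 were called higher and HOXC4 was not called. Groups 9, 10 and 11 had 1 call each, HOXD9, HOXA10 and HOXA11, all higher.

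The gates differed in which HOX genes had moved. The comparisons against YFP-negative cells share that library, and the comparisons between neighbouring YFP-positive gates share the YFP-medium library. In YFP-low against YFP-negative cells no HOX member was called, beside 2.11% of analysed genes higher and 0.0463% lower, and the HOX log2 ratios ran between -0.65 (HOXB6) and 0.67 (HOXA10). In YFP-medium against YFP-negative cells 6 were called higher (18.8%; all analysed genes 9.76%), namely HOXA3, HOXA4, HOXA10, HOXA13, HOXD4 and HOXD8, and 2 lower (6.25%; all analysed genes 2.21%), HOXB6 and HOXB13. In YFP-medium against YFP-low cells HOXA13 (2.73-fold, 2.40 to 3.10) and HOXD8 were called higher, beside 2.71% of genes, and none lower, beside 0.185%. In YFP-high against YFP-medium cells 11 were called higher, HOXA4, HOXA5, HOXA10, HOXA11, HOXA13, HOXC8, HOXC13, HOXD1, HOXD3, HOXD4 and HOXD9, beside 9.25% of genes, and none lower, beside 1.33%. Of these, HOXD1 and HOXD3 had to differ by the filter.

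Of the YFP-high log2 ratio over YFP-negative cells, HOXB6 had reached 74.8% in YFP-medium cells, HOXD8 70.6%, HOXA3 61.1%, HOXA10 59.9% and HOXB13 57.9%. HOXA13 had reached 36.0% of its ratio in YFP-medium cells, HOXA5 22.0% and HOXA11 5.56%. With plain folds, without the pseudocount, HOXA13 had reached 37.3% and HOXA5 25.9%. Across the gates 11 of 32 members (HOXA3, HOXA4, HOXA10, HOXA13, HOXB3, HOXB7, HOXD1, HOXD3, HOXD4, HOXD8 and HOXD9) were higher at every step, beside 24.1% of analysed genes. Of these 11, HOXD1 and HOXD3 reached 1 CPM in YFP-high cells alone, which fixed their last step. HOXB2, HOXB5, HOXB6, HOXB13, HOXC4 and HOXC10 were lower at every step, 6 of 32 beside 27.9%. A step needed no call. Some steps lay within counting error, such as YFP-low over YFP-negative for HOXD9 (1.07, 0.922 to 1.25) and HOXB2 (0.964, 0.769 to 1.21). The step between YFP-medium and YFP-low of HOXB3 and HOXB7 was small and changed sign when libraries were scaled by total counts, to -0.05 for each.

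Levels between genes were compared in TPM, the deposited unit corrected for transcript length. Summed over its members the HOXA cluster had 64.6 TPM in parental cells, 70.2 in YFP-negative cells, 80.7 in YFP-low cells, 126 in YFP-medium cells and 320 TPM in YFP-high cells. HOXD had 23.5 TPM in parental cells, 21.5 in YFP-negative cells, 27.5 in YFP-low cells, 57.2 in YFP-medium cells and 118 TPM in YFP-high cells. HOXB had 159 TPM in parental cells, 135 in YFP-negative cells, 120 in YFP-low cells, 106 in YFP-medium cells and 120 TPM in YFP-high cells, without a steady course. HOXC had 127 TPM in parental cells, 92.4 in YFP-negative cells, 76.9 in YFP-low cells, 60.5 in YFP-medium cells and 103 TPM in YFP-high cells. HOXA thus held 48.5% of HOX transcripts in YFP-high cells and 22.0% in YFP-negative cells, while HOXB held 18.1% in YFP-high and 42.4% in YFP-negative cells.

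The most abundant HOX transcript was HOXB9 in parental cells (60.1 TPM) and in YFP-negative cells (54.7 TPM), HOXB7 in YFP-low cells (40.8 TPM) and HOXA10 in YFP-medium cells (52.3 TPM) and YFP-high cells (108 TPM). In YFP-high cells HOXA13 (83.5 TPM), HOXD8 (65.2 TPM), HOXB7 (41.9 TPM) and HOXB9 (41.2 TPM) followed. HOXB7 and HOXB9 differ there by less than 1 TPM, and with a single library their order is not established.

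**Figure D3:**
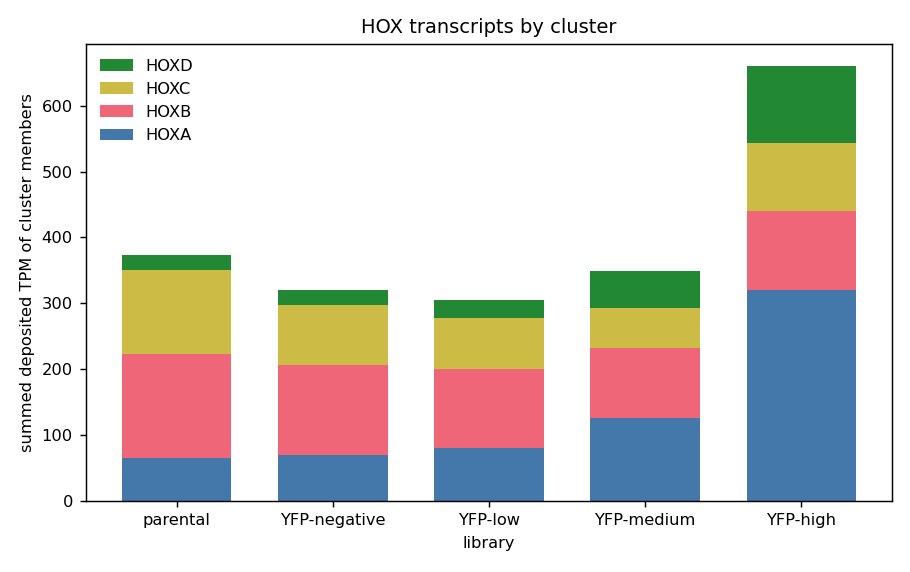
Summed deposited TPM of the HOX genes in each of the 5 libraries, stacked by cluster from HOXA at the bottom to HOXD at the top. The total is 661 TPM in YFP-high cells and 305 to 374 TPM in the other 4 libraries, and the HOXA block makes up most of the added height.

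YFP-negative cells were also set against parental cells, a contrast in which the construct, the sort and the history of the line cannot be told apart. In YFP-negative cells no HOX member was called higher, beside 2.15% of analysed genes, and 2 were lower, beside 2.93%. HOXB2 was 3.68-fold lower in YFP-negative than in parental cells (3.10 to 4.39), and HOXD11, analysed through the parental library alone, was 3.86-fold lower (2.90 to 5.19). HOXC genes had a median log2 ratio of -0.58 without a call, with HOXC5 at -0.97 and HOXC11 at -0.81. With parental cells as the baseline for YFP-high cells, 6 of 9 HOXA and 5 of 7 HOXD members were called higher, beside 21.3% of genes. Of the HOXD calls, HOXD1 and HOXD3 reached 1 CPM in YFP-high cells alone and so had to differ. HOXD also had 1 lower call, HOXD11, analysed through the parental library alone. HOXC then had 4 lower calls, HOXC4, HOXC5, HOXC10 and HOXC11, beside 14.9% of genes, of which HOXC5 was analysed through the parental library alone, and 1 higher, HOXC8 (2.21-fold, 2.00 to 2.44). HOXA13 was 14.6-fold above parental (13.2 to 16.1) in YFP-high cells, HOXD8 9.07-fold (8.31 to 9.91) and HOXB2 9.77-fold below (7.30 to 13.4).

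The noncoding RNAs of the clusters were read where the table names them, which held for 14 of 26 listed, 7 of them analysed. HOTTIP, transcribed next to HOXA13 and known in human fibroblasts to help keep posterior HOXA genes active, had 0.266 CPM in parental cells, 0.228 in YFP-negative cells, 0.271 in YFP-low cells, 0.502 in YFP-medium cells and 10.5 CPM in YFP-high cells. It was 46.3-fold higher in YFP-high than in YFP-negative cells (29.4 to 77.4). Its largest step was at the last gate, like that of HOXA13. HOTTIP reached 1 CPM in YFP-high cells alone, which fixed a rise there, so the shared gate is no support. HOXB-AS3, antisense in the HOXB5 and HOXB6 stretch, had 0.908 CPM in YFP-high and 2.42 CPM in YFP-negative cells, 2.67-fold lower (1.98 to 3.64). HOXA-AS3, antisense over HOXA5 to HOXA7, lay under 1 CPM in every library and had 50 reads in YFP-high and 0 in YFP-negative cells. Its ratio is 21.8 when a floor of 3 reads replaces the 0. The counting interval of 50 against 0 reads begins at 17.0 and is not an interval of that ratio.

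HOTAIR, an RNA from the HOXC cluster studied for its action on HOXD genes, had 9.08 CPM in parental cells, 5.11 in YFP-negative cells, 2.92 in YFP-low cells, 1.89 in YFP-medium cells and 3.35 CPM in YFP-high cells. It dipped at YFP-medium, where HOXC11, which it overlaps, was also lowest. Of the 7 analysed noncoding RNAs 1 was called higher and 1 lower in YFP-high against YFP-negative cells, beside 20.5% and 11.3% of all analysed genes. The higher one, HOTTIP, reached 1 CPM in YFP-high cells alone and so had to differ.

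Genes just outside the clusters were mostly within 2-fold. Of 10 analysed flanking genes 2 were called higher and none lower in YFP-high against YFP-negative cells, beside 20.5% and 11.3% of all analysed genes, with a median log2 ratio of -0.22. This is near the share over all genes, and TTLL6, 1 of the 2, reached 1 CPM in YFP-high cells alone. Scaled by total counts they had 1 call higher and 2 lower. TTLL6, a tubulin-modifying enzyme gene beyond HOXB13, had 2.19 CPM in YFP-high and 0.204 CPM in YFP-negative cells, 10.8-fold higher (6.48 to 19.0). KIAA1715, beyond the posterior end of HOXD, had 87.1 CPM in YFP-high and 42.6 CPM in YFP-negative cells, 2.04-fold higher (1.96 to 2.13). HIBADH, on the far side of HOXA13, had 29.9 CPM in YFP-high and 58.7 CPM in YFP-negative cells, opposite in direction to HOXA13 and HOTTIP and not called.

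The TALE partners of HOX proteins also parted. Of 7 analysed, 3 were called higher and 2 lower in YFP-high against YFP-negative cells, beside 20.5% and 11.3% of all analysed genes. The median log2 ratio was 1.00, beside -0.04 over the analysed genes. Scaled by total counts, 2 were called higher. MEIS1, which binds DNA with HOX proteins, had 19.7 CPM in parental cells, 10.1 in YFP-negative cells, 7.25 in YFP-low cells, 3.91 in YFP-medium cells and 2.32 CPM in YFP-high cells, 4.35-fold lower in YFP-high than in YFP-negative (3.65 to 5.22). PBX3 had 19.3 CPM in parental cells, 21.8 in YFP-negative cells, 35.3 in YFP-low cells, 56.5 in YFP-medium cells and 79.7 CPM in YFP-high cells, 3.66-fold higher (3.47 to 3.87). MEIS1 was highest in parental cells and lowest in YFP-high cells, and PBX3 was highest in YFP-high cells. PBX4 was 3.82-fold higher in YFP-high than in YFP-negative cells (2.86 to 5.14) and MEIS2 2.20-fold higher (2.02 to 2.40).

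**Figure D4:**
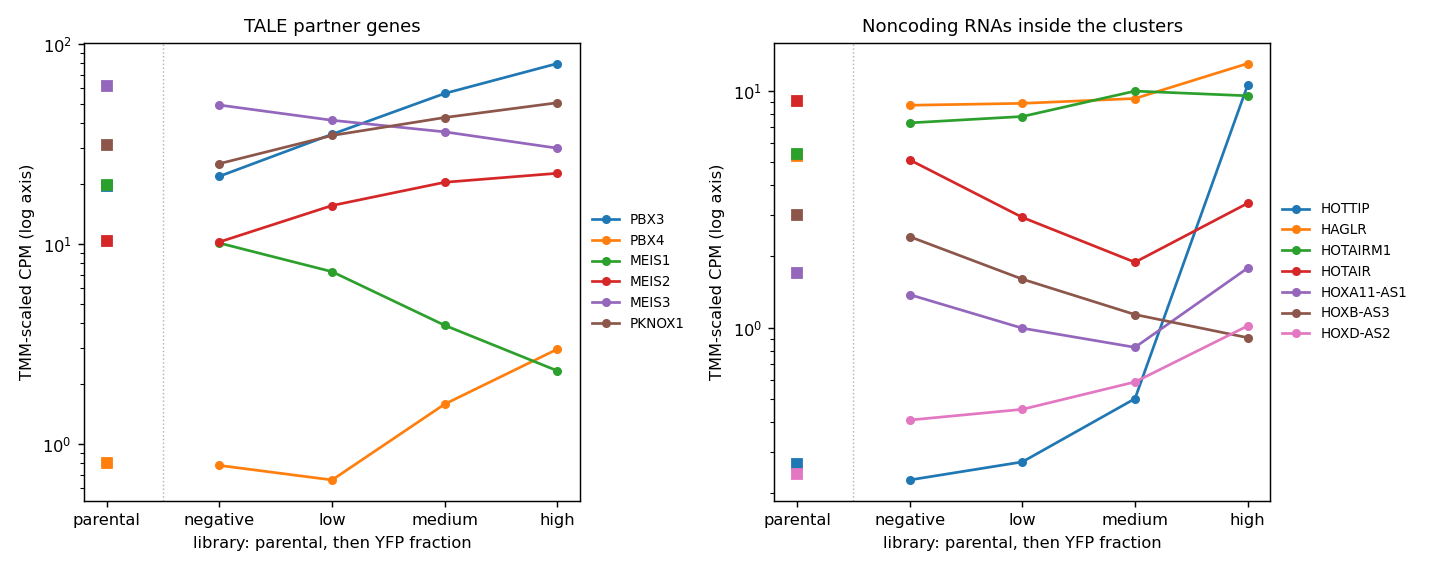
TMM-scaled CPM on a log axis of TALE partner genes (left) and of noncoding RNAs inside the HOX clusters (right), with parental cells as squares and YFP fractions as joined points, 1 library per point. MEIS1 descends while PBX3 climbs to 79.7 CPM, and HOTTIP lies near 0.502 CPM or below until it reaches 10.5 CPM in YFP-high cells.

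The chromatin regulators that hold HOX genes on or off were read from lists of Trithorax and Polycomb complex members. Of 14 analysed Trithorax genes 4 were called higher (28.6%) and 1 lower (7.14%) in YFP-high against YFP-negative cells, near the 20.5% and 11.3% of all analysed genes, with a median log2 ratio of 0.57. ASH2L, a core subunit of the histone H3K4 methyltransferase complexes, had 237 CPM in YFP-high and 53.5 CPM in YFP-negative cells, 4.43-fold higher (4.28 to 4.58). MLL3, a catalytic subunit, was 3.99-fold higher (3.84 to 4.15) and SETD1B 2.88-fold higher (2.79 to 2.97). KDM6B, which removes the Polycomb methyl mark, had 10.2 CPM in YFP-high and 35.9 CPM in YFP-negative cells, 3.52-fold lower (3.24 to 3.84).

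Of 28 analysed Polycomb genes 13 were called higher (46.4%) and none lower, beside 20.5% and 11.3% of all analysed genes, with a median log2 ratio of 0.90, and 9 were called higher with libraries scaled by total counts. CBX2, a PRC1 subunit that binds chromatin, had 538 CPM in YFP-high and 101 CPM in YFP-negative cells, 5.30-fold higher (5.18 to 5.43). YAF2 was 3.59-fold higher (3.40 to 3.80) and CBX7 3.50-fold (3.36 to 3.63). Whether these genes bear on the HOX levels was not tested.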

How the data were processed

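RNA was sequenced from 5 U2OS libraries, 1 per group, grouped by their labelled fraction. The authors deposited raw whole-number read counts per gene name, and a second table of TPM, transcripts per 1000000 corrected for length, which for 96.9% of 14781 well-covered genes stood in the same ratio to the counts within 1% over the libraries. Tools listed in the submitters' processing notes are HTSeq 0.6.0, HISAT2 2.0.3, Trimmomatic 0.36, bcl2fastq and CASAVA 1.8.2, with build hg19. The annotation and the strand setting used were not given in the sources used here. In RefSeq 23 of the 39 HOX genes overlap another gene, and reads of such pairs or of antisense partners cannot be separated.

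HTSeq's classes of unassigned reads and a row without a gene name, with 207 to 682 reads, stayed out, and gene rows held 75.7% to 77.7% of the table's reads. Reads the counting called ambiguous made up 4.06% to 4.33%. Counts were scaled by TMM in edgeR 4.0.16 (R 4.3.3), with factors of 0.904 to 1.09, and expressed as CPM. A gene was analysed if any library reached 1 CPM (15109 genes). Calls followed a 2-fold rule on log2 ratios together with an exact 95% counting interval. The ratios had a pseudocount of 0.5 CPM, which understates changes of low genes. The rule was run on simulated libraries as a check of the code. Those libraries held counting error only, so they cannot show how the rule fares with variation between libraries. With 1 library per group no test across samples can be made and no p-value is given. No sample column was left unused (0). The Python 3.11.15 code used scipy 1.17.1, pandas 2.3.3, numpy 2.4.6 and matplotlib 3.10.9. The 39 members, the other gene lists and the rules were chosen with earlier results of these data known. Named genes are E2F1, every HOX member and up to 4 called genes of each other list with the largest log2 ratio in YFP-high against YFP-negative cells. MEIS2, HOTAIR, HOXA-AS3, HIBADH, LBX1, EN1, DBX2, DLX3, NKX2-3 and VAX2 were picked once their values were known. Some genes under this rule are not reported here, though counts and sums include them. Alternative settings were scaling by total counts or by size factors of DESeq2 1.42.0, a 5 CPM filter or none, pseudocounts of 2 and 0.1 CPM, a 1.5-fold rule, the 2-fold rule on deposited TPM, and parental cells as baseline. Scaling alternatives for the other lists were chosen after seeing the data.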

Additional observations from a re-analysis of the deposited data

How the results depend on the processing

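No paired analysis was possible because each group has 1 library. In YFP-high against YFP-negative cells, 4 members were called lower, 2 with a pseudocount of 2 CPM and 9 against parental cells. In YFP-medium cells, 2 were called lower, 1 with a pseudocount of 2 CPM, 5 with the 1.5-fold rule, 4 in TPM and 8 against parental cells. The lower calls against parental cells include HOXC5 and HOXD11, and in YFP-medium cells HOXD10, all analysed through the parental library alone. Shares of all genes under the alternative settings are not given beside the counts in this section. The counts therefore show only how the HOX calls depend on the setting. In YFP-low cells, with no call in either direction, the 1.5-fold rule called 2 higher and 1 lower, and the parental baseline 2 higher and 5 lower. With the 1.5-fold rule, YFP-medium against YFP-low cells had 9 higher, where the 2-fold rule had 2, and 3 lower, where it had 0, and YFP-high against YFP-medium cells had 2 lower, where it had 0. In YFP-negative against parental cells, 2 were called lower, 1 with the 5 CPM filter, 1 with a pseudocount of 2 CPM, 4 with 0.1 CPM, 8 with the 1.5-fold rule and 4 in TPM, and 0 were called higher, 1 with a pseudocount of 0.1 CPM and 1 with the 1.5-fold rule. The cause of these moves was not tested, beyond the lower bar of the 1.5-fold rule. Every other count of HOX calls kept within 1.5 times its value. No log2 ratio of a called member reversed, among the values recomputed per member. Of these values 1468 kept their side and call, 75 became calls on the same side and 16 lost a call. The other 31 were uncalled and changed side, among them HOXD11, which became a lower call in YFP-high cells against parental cells. Scaling by total counts shifted the median of all genes by -0.25 in YFP-high against YFP-negative cells and by -0.20 in YFP-medium against YFP-negative cells, and the HOX median in YFP-high cells to 0.45, where TMM gave 0.71. In TPM the shifts were -0.12 and -0.11. Of the other lists, chosen after seeing the data for this check, scaling by total counts gave 9 Polycomb genes higher where TMM gave 13, 2 TALE genes higher where it gave 3, 1 flanking gene higher and 2 lower where it gave 2 and 0, and 2 retinoic acid genes lower where it gave 1. Depth limits members near the floor of 3 reads, such as HOXB1, HOXC12, HOXD12 and HOXD13.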

Other observations

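Homeobox genes outside the HOX clusters were read from a list of other genes of the same Antennapedia (ANTP) class. Of 26 analysed, 18 were called higher and 1 lower in YFP-high against YFP-negative cells, beside 20.5% and 11.3% of all analysed genes, with a median log2 ratio of 1.93. Of the 18, 7 (DBX2, DLX3, GBX1, LBX1, MNX1, NKX2-3 and VAX2) reached 1 CPM in YFP-high cells alone and so had to differ. Without genes of that kind 11 of 19 were called higher (57.9%), beside 18.4% of all analysed genes. MNX1, a motor neuron and pancreas gene, had 0 CPM in parental cells, 0.0599 in YFP-negative cells, 0.0775 in YFP-low cells, 0.398 in YFP-medium cells and 8.86 CPM in YFP-high cells. GBX1 had 8.76 CPM in YFP-high and 0.120 CPM in YFP-negative cells, 73.1-fold higher (39.5 to 153). BARX2 was 39.6-fold higher (29.5 to 54.3) and EMX1, a forebrain gene, 23.1-fold higher (16.8 to 32.4). LBX1, a muscle precursor gene, had 213 reads in YFP-high and 0 in YFP-negative cells. Its ratio is 92.7 when a floor of 3 reads replaces the 0. The counting interval of 213 against 0 reads begins at 74.7 and is not an interval of that ratio. EN1 was the 1 called lower, with 0.172 CPM in YFP-high and 1.01 CPM in YFP-negative cells, 5.85-fold lower (3.11 to 12.2).

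The ParaHOX and CDX genes, relatives of the HOX clusters, had 2 analysed members, both called higher in YFP-high against YFP-negative cells, beside 20.5% of all analysed genes. PDX1, a pancreas gene that reached 1 CPM in YFP-high cells alone and so had to differ, had 4.397 CPM in YFP-high and 0.252 CPM in YFP-negative cells, 17.5-fold higher (11.2 to 28.7). CDX2, an intestinal gene, had 8.23 CPM in YFP-high and 2.06 CPM in YFP-negative cells, 3.99-fold higher (3.35 to 4.77). Of 12 analysed retinoic acid pathway genes 5 were called higher and 1 lower, beside 20.5% and 11.3% of all analysed genes, with a median log2 ratio of 0.79. Of the 5, ALDH1A3 and RXRB reached 1 CPM in YFP-high cells alone and so had to differ. Without them 3 of 10 were called higher, beside 18.4% of all analysed genes. RDH10, which makes retinal for retinoic acid synthesis, had 199 CPM in YFP-high and 25.3 CPM in YFP-negative cells, 7.88-fold higher (7.53 to 8.26). ALDH1A3, which makes retinoic acid, had 2.55 CPM in YFP-high and 0.144 CPM in YFP-negative cells, 17.7-fold higher (9.88 to 35.0). RARA, a retinoic acid receptor, had 23.7 CPM in YFP-high and 72.9 CPM in YFP-negative cells, 3.07-fold lower (2.90 to 3.25). RXRB had 1.88 CPM in YFP-high and 0.0959 CPM in YFP-negative cells, and is uncertain because its region is held in several copies in some forms of build hg19.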
